A study of Mus musculus with 8 samples.

Results

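The miR-30 family was examined in basal progenitors sorted from the mouse embryonic cortex, through mmu-miR-30a, mmu-miR-30b, mmu-miR-30c, mmu-miR-30d and mmu-miR-30e (mmu for mouse, left out below where sequences and ratios are named) and the star arm of the first hairpin, mmu-miR-30a*. These 6 members were chosen by name among the 611 mouse miRNAs on the array, and 13 of its 1759 mouse probes report them. Basal progenitors are precursors that divide away from the ventricle and produce cortical neurons. RNA of progenitors taken at embryonic day 13 (E13) or embryonic day 16 (E16) was hybridised to one-colour Agilent miRNA arrays, with 4 biological replicates of each stage on an array each and all samples labelled WT. The comparison of E16 with E13 addresses which miRNAs differ between an earlier and a later stage of neurogenesis. The mouse strain and the sorting gate are not given in the sources used here, and the submitters name 3 litters per stage, so that replicates may share a litter and the p-values measure the spread between these samples.

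A miRNA hairpin is cut by Drosha and Dicer into a duplex, of which one arm is usually loaded into an Argonaute protein as the guide while the other, marked with a star in the older nomenclature used here, is mostly degraded. The guide recognises messenger RNAs mainly through its seed, bases 2 to 8. The miR-30 guides come from the 5′ arm and share one seed, so that their predicted targets largely coincide. The family is widely expressed, has been tied to differentiation and to autophagy through the target Becn1, and its miR-30a hairpin is the backbone of many short hairpin RNA vectors.

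The mature sequences are shown because the array must tell apart members that differ by few bases. They were taken from RefSeq (GRCm38.p6), which matched 4 of the 6 members by name, and the seed is in capitals.
miR-30a: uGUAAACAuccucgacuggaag
miR-30e: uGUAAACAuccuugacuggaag
miR-30c: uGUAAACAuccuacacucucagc
miR-30a*: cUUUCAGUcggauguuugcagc
miR-30e*: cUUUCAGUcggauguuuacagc
miR-30e* is no member and is shown as the counterpart of miR-30a*. Counted from the 5′ end, miR-30a and miR-30e differ by the single substitution C13U, and miR-30a* and miR-30e* by G18A. The first 12 bases of miR-30a, miR-30c and miR-30e were identical. The star arms carry another seed than the guides, and so pair with other target sites. In the hairpin of Mir30a both arms are in capitals.
Mir30a: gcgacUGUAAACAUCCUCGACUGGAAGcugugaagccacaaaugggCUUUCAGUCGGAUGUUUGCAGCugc

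The 5 guides are encoded by 6 genes in 3 loci, given here in GRCm38.p6. Mir30a (chromosome 1, 23272269 to 23272339) lies 19361 bases from Mir30c-2 (23291701 to 23291784), and neither overlaps another gene of the RefSeq table. Mir30e (chromosome 4, 120772606 to 120772697) lies 2983 bases from Mir30c-1 (120769534 to 120769622), and both overlap Nfyc, which encodes a subunit of the CCAAT-binding factor NF-Y. Mir30e also overlaps Mir30f, a gene of the RefSeq table that is not among these 6. Mir30b (chromosome 15, 68337415 to 68337510) and Mir30d (68341208 to 68341289) are 3697 bases apart and overlap no other gene of that table. The mature miR-30c of Mir30c-1 and Mir30c-2 is the same, so its signal cannot be divided between chromosomes 1 and 4.

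The probes that stand for the members are shown because they read the variable 3′ part of each miRNA. The base that differs between the members of a pair is in capitals, and the probe of miR-30c is printed without capitals.
probe of miR-30a: cttccagtcGaggatgt
probe of miR-30e: cttccagtcAaggatgt
probe of miR-30a*: gctgCaaacatccgact
probe of miR-30e*: gctgTaaacatccgactg
probe of miR-30c: gctgagagtgtaggatgt
The probes of miR-30a, miR-30e and miR-30a* pair with bases 6 to 22 of their targets and cover 3 of the 7 seed bases. The probes of miR-30a and miR-30e differ by G10A and those of miR-30a* and miR-30e* by C5T, counted from the 5′ end of the probe. The 14-base probe of miR-30d differed from that of miR-30a at 1 of 14 bases and from that of miR-30e at 2. The probe of miR-30b shared a run of 13 bases with that of miR-30c. Signal shared between members through such pairing was not tested. The files place the miR-30a probe on chromosome 1 from 23279119 to 23279134 and the miR-30a* probe from 23279160 to 23279175 (mm9), spans 1 base shorter than the probes.

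Arrays differed in brightness. The 75th percentile of the signal of probes detected everywhere was lowest, at 109, on the array of E16 replicate 4 and highest, at 748, on that of E16 replicate 2. An array detected 76 to 206 miRNAs well above background, the fewest again on E16 replicate 4. Slide 1 held E16 replicate 1 alone, slide 2 held E13 replicates 1 and 2 with E16 replicates 2 and 3, and slide 3 held E13 replicates 3 and 4 with E16 replicate 4. All E13 arrays lay in row 2 and all E16 arrays in row 1 of a slide, so that stage and row cannot be told apart. Both arms of miR-9, characteristic of neural cells, were detected on all 8 arrays, whereas 0 of 23 miRNAs of endothelium, blood, leukocytes, epithelium, mesenchyme and muscle were well above background on any array. The proteins and mRNAs that define basal progenitors, such as Eomes, are not measured by this assay. Of 7 neuronal miRNAs listed, all were detected on at least 1 array, and their summed scaled signal lay between 1.08 and 1.34 at E13 and between 0.50 and 1.84 at E16. Of the 6 tested, 2 were lower at E16 and 0 were higher, where 26.1% of the 153 tested miRNAs were lower and 7.19% higher. The first, miR-153, was at the floor on the 4 E16 arrays, so that its log2 difference of -2.28 is a bound without a measured spread at E16. The second, miR-7a, had a log2 difference of -1.86 (limma adjusted p = 5.8e-05), and both were named after their values were seen. The rest of the 6 had log2 differences of -0.15 to 0.17, on both sides of 0, and did not pass. The part of the neuronal miRNAs in the results on miR-30 was not tested.

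None of the 6 members passed the test between E13 and E16. The guides miR-30a, miR-30b, miR-30c, miR-30d and miR-30e had log2 differences (E16 minus E13) of 0.02 to 0.39, and miR-30a* had -0.45. The counts were 0 of 6 higher and 0 of 6 lower (limma, Benjamini-Hochberg adjusted p under 0.05), where 7.19% of the 153 tested miRNAs were higher, 26.1% lower and 33.3% either. At an unadjusted p under 0.05 the count was also 0 of 6, against 69 of 153. The 4 values of each stage overlapped for all 6 members, whereas 38.6% of the tested miRNAs had no overlap. In bulk RNA, a difference in the number of cells that express a miRNA and one in its amount per cell cannot be told apart.

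Values below are log2 signals scaled to the array's 75th percentile, where 0 is that percentile, and are compared between stages and not between members, whose probes differ in affinity. The guides of chromosome 1 come first. mmu-miR-30a, known to repress Becn1, was at -0.30, -0.63, -0.09 and -0.21 on E13 replicates 1 to 4 and at 0.05, -0.06, 0.02 and -0.53 on E16 replicates 1 to 4. Its E16 replicates 1 to 3 lay above every E13 value, and E16 replicate 4 lay within the E13 range. The means were -0.31 ± 0.23 at E13 and -0.13 ± 0.27 at E16 (SD, n = 4 each), a difference of 0.18 (SE 0.19, 95% confidence interval -0.26 to 0.61, limma adjusted p = 0.47).

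mmu-miR-30c, the guide made from both chromosomes 1 and 4, was at -0.24, -0.75, -0.01 and -0.14 on E13 replicates 1 to 4 and at -0.34, 0.11, 0.32 and 0.02 on E16 replicates 1 to 4. Here E16 replicate 1 fell within the E13 range, and E16 replicate 4, low for miR-30a, did not. The difference was 0.31 (SE 0.21, interval -0.17 to 0.80, limma adjusted p = 0.27).

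mmu-miR-30e, encoded with Mir30c-1 inside Nfyc, was at -1.78, -2.31, -1.54 and -1.59 on E13 replicates 1 to 4 and at -1.03, -1.47, -1.17 and -1.98 on E16 replicates 1 to 4. Again E16 replicates 1 to 3 exceeded all E13 values, and E16 replicate 4 was below 3 of them. Its difference of 0.39 (SE 0.26, interval -0.20 to 0.97, limma adjusted p = 0.26) was the highest of the members.

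On chromosome 15, mmu-miR-30b was at -3.35, -3.64, -2.95 and -3.16 on E13 replicates 1 to 4 and at -2.93, -2.999, -2.62 and -3.48 on E16 replicates 1 to 4. The stages overlapped, with E16 replicate 4 below 3 of the E13 arrays. The difference was 0.27 (SE 0.23, interval -0.24 to 0.78, limma adjusted p = 0.37).

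Its neighbour mmu-miR-30d was at -1.91, -2.01, -1.89 and -1.99 on E13 replicates 1 to 4 and at -1.94, -1.84, -1.93 and -2.02 on E16 replicates 1 to 4. It held nearly the same level on every array, and its SD between replicates was 0.06 at E13 and 0.07 at E16, against 0.23 to 0.42 for the other 4 guides. The difference was 0.02 (SE 0.13, interval -0.27 to 0.31, limma adjusted p = 0.91). The spread of miR-30d is not tested against that of the others, and its probe is the shortest of the 6.

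**Figure D1:**
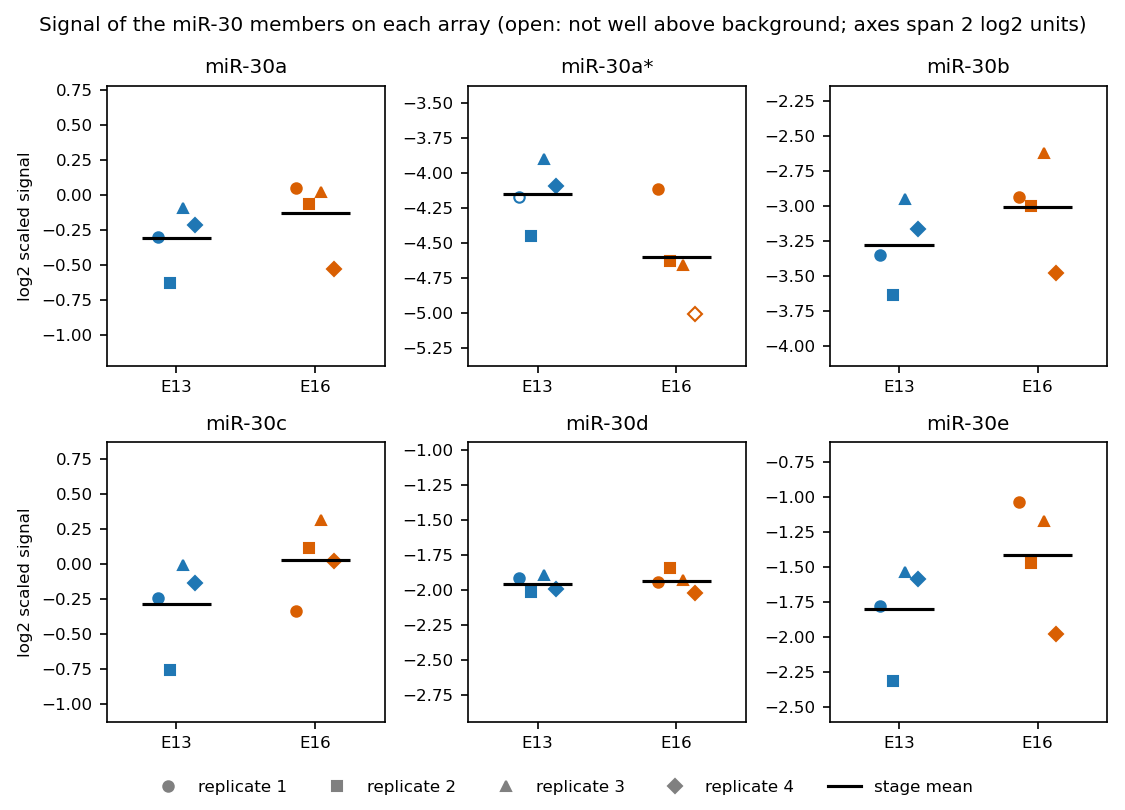
Log2 scaled signal of each miR-30 member on the 4 E13 and 4 E16 arrays, 1 panel per member, with the stage mean as a bar and open symbols where the probe was not well above background. The stages overlap in every panel, miR-30d stays within 0.2 log2 units, and E16 replicate 4 is the lowest E16 array for every member but miR-30c.

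On E16 replicate 4 miR-30a, miR-30b and miR-30e were 0.53, 0.63 and 0.76 log2 units below the mean of the other E16 arrays, while miR-30d was 0.12 below it and miR-30c 0.01 below it. This array was the dimmest of the 8 and had the lowest summed neuronal signal, 0.50, and their part in the result was not tested. Without it the differences of the 5 guides were 0.05 to 0.58 and none passed, where 11.1% of tested miRNAs were higher and 35.3% lower. A fixed block for the slide gave 0.02 to 0.46, within slide 2 they were 0.08 to 0.73, and within slide 3, where E16 replicate 4 is the one E16 array, -0.42 to 0.09. No guide passed in these 3 fits, where 6.54%, 5.88% and 9.15% of tested miRNAs were higher and 25.5%, 16.3% and 57.5% lower.

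The differences were also set against those of the other miRNAs. The median difference of the 153 tested miRNAs was -0.40, and the 5 guides lay 0.42 to 0.79 above it, at positions 20 to 43 from the most positive difference, whereas miR-30a* lay 0.05 below it. This median depended on which miRNAs entered it. A stricter filter kept 75 miRNAs that every array detected, the 5 guides among them, and their median difference was -0.15. The guides kept their differences of 0.02 to 0.39 under that filter, so they lay less far above the median. Both the median of all tested miRNAs and the calls differed between scalings. With each array centred on the median of the tested miRNAs, all 5 guides were higher at E16, by 0.47 for miR-30d to 0.84 for miR-30e (limma adjusted p from 0.013 to 0.017), where 19.6% of tested miRNAs were higher. With the 75th percentile taken over all mouse probes, most of them near background, the 5 guides were higher by 0.84 to 1.21, and so were 30.7% of tested miRNAs. With quantile normalization the differences were 0.20 to 0.56 and none passed, where 13.1% of tested miRNAs were higher. After normexp background correction they were 0.10 to 0.26 and none passed, where 9.15% were higher. Of the 5 guides in the value table that the authors deposited, miR-30b was higher (0.71, limma adjusted p = 0.027), as were 15.1% of its 86 tested miRNAs. With the scanner's total signal per miRNA the differences were -0.06 for miR-30d to 0.23 for miR-30e, none passed, and 5.88% of tested miRNAs were higher. Relative to the median of all tested miRNAs the reported scaling, the all-probe percentile and median centring give the same position by construction (0.42 to 0.79 above it), since they shift all miRNAs of an array alike. Under the other 4 settings the guides lay 0.16 to 0.84 above that median.

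**Figure D2:**
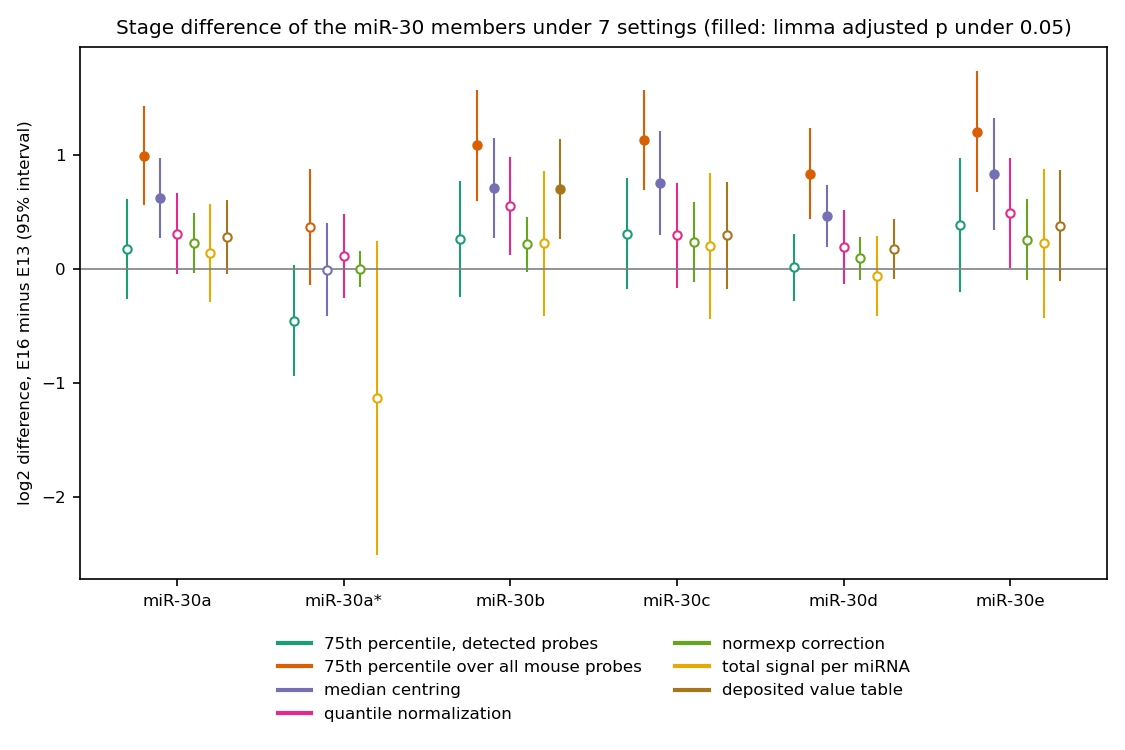
Log2 difference (E16 minus E13) of each member with its 95% confidence interval under 7 ways of scaling or summarising the signal, filled where the limma adjusted p was under 0.05; miR-30a* has no value in the deposited table. The 5 guides are filled with median centring and with the all-probe percentile, miR-30b also in the deposited table, and miR-30a* lies on both sides of 0.

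The star arm, mmu-miR-30a*, was near the limit of detection. Its processed signal was 9.02, 14.5, 32.7 and 17.2 on E13 replicates 1 to 4 and 35.1, 30.2, 11.2 and 3.37 on E16 replicates 1 to 4, and it was well above background on 3 arrays of each stage, not on E13 replicate 1 or E16 replicate 4. Scaled, it was at -4.17, -4.45, -3.91 and -4.10 at E13 and at -4.12, -4.63, -4.66 and -5.01 at E16. E16 replicates 2 to 4 were below all E13 values, and E16 replicate 1 was within the E13 range. The difference of -0.45 (SE 0.22, interval -0.94 to 0.04, limma adjusted p = 0.14) did not pass. Without E16 replicate 1 it passed (-0.61, limma adjusted p = 0.036), where 31.4% of tested miRNAs were lower. Within slide 3 the difference was -1.01 (limma adjusted p = 0.011), but the E16 side of that fit is E16 replicate 4 alone, on which miR-30a* was not well above background, so that no call was drawn from it. Its sign turned to 0.37 with the all-probe percentile and to 0.12 after quantile normalization.

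The ratio of the 2 arms within an array is free of the array's scaling. The log2 ratio of miR-30a* to miR-30a was -3.87, -3.82, -3.81 and -3.88 on E13 replicates 1 to 4 and -4.17, -4.57, -4.68 and -4.48 on E16 replicates 1 to 4. All 4 E16 ratios lay below all 4 E13 ratios, and the SD between arrays was 0.04 at E13 and 0.22 at E16. The ratio shows an unequal difference of the arms between stages and not which arm is more abundant, since their probes differ. The mean ratio was 0.63 lower at E16 on the log2 scale (two-sided exact permutation test, 70 assignments of stage to array, p = 0.029, the smallest this design allows, and 0.11 after Benjamini-Hochberg adjustment over 4 pairs). The adjusted value did not pass the threshold, and 1 pair alone could not: the smallest p of 0.029 in 1 of 4 pairs adjusts to 0.11. With the slide as a block the difference was -0.72, within slide 2 it was -0.78 and within slide 3 it was -0.63, with too few arrays in each to reach the threshold. Over the 6 arrays with miR-30a* well above background it was -0.63 (exact p = 0.10, the smallest possible for 3 against 3). With the 16-base probes of both arms it was -0.84, but that probe of miR-30a* was detected on 1 array of E13 and 2 of E16 and at the floor on 1, so that this value carries little weight. It was smaller after quantile normalization (-0.20, exact p = 0.17) and normexp correction (-0.23, with 50 added to each signal, exact p = 0.057). With the total signal per miRNA it was larger (-1.28, exact p = 0.057). The ratios of the stages overlapped under each of these settings, so the full separation depended on the processing.

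The hairpin of miR-30e gave a similar ratio, examined after that of miR-30a had been seen. miR-30e* was detected on 4 arrays of E13 and 3 of E16, with a log2 difference of -0.18 (SE 0.29, limma adjusted p = 0.65). The log2 ratio of miR-30e* to miR-30e was -2.02, -2.02, -1.90 and -1.92 on E13 replicates 1 to 4 and -2.32, -2.63, -2.66 and -2.52 on E16 replicates 1 to 4. Again no E16 array reached the E13 values, and the difference was -0.57 (exact permutation test, p = 0.029 before any adjustment). This too depended on the processing. The difference was -0.13 after quantile normalization (exact permutation test, p = 0.34) and -0.20 after normexp correction (exact p = 0.11). With the total signal per miRNA it was -0.95 (exact p = 0.086), and the stages overlapped under each of these settings. Over 18 hairpins with both arms tested, the ratio set the star arm, or the 3p arm where none is starred, over the other. That arm need not be the minor one, so the direction is not alike in meaning for all 18. Of these hairpins, 27.8% had ratios without overlap between stages, 11.1% with the lower values at E16, and the latter were the hairpins of miR-30a and miR-30e. Lower mean ratios at E16 were not limited to them: 6 of the 18 were below 0, among them miR-124* to miR-124 (-0.79), miR-181a-1* to miR-181a (-0.57) and miR-340-3p to miR-340-5p (-0.57), named after their values were seen, whose stages overlapped. The probes of the miR-30a and miR-30e hairpins differ by 1 base in each arm, and how far the ratios share signal was not tested. Of the other star arms on the array, miR-30b* and miR-30c-1* were well above background on no array and miR-30c-2* on 1 E16 array.

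**Figure D3:**
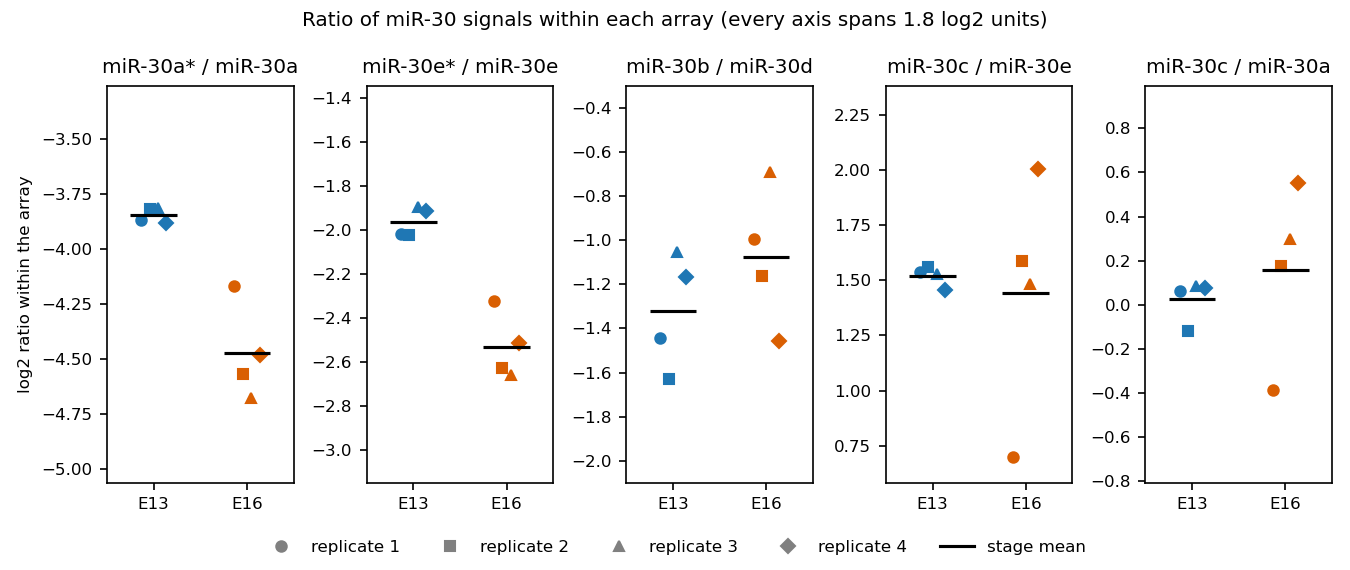
Log2 ratio of the signals of 2 miR-30 miRNAs within each array, for the arms of the miR-30a and miR-30e hairpins and for 3 pairs of guides from neighbouring genes, with the stage mean as a bar. The arm ratios do not overlap between stages, whereas the ratios of guides do, with E16 replicate 1 far below the other arrays for miR-30c against miR-30e.

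Guides encoded side by side were compared in the same way, and none of the 3 ratios passed the test over all 8 arrays. For miR-30b against miR-30d the mean log2 ratio was -1.32 ± 0.26 at E13 and -1.08 ± 0.32 at E16 (SD, n = 4 each), a difference of 0.25 (two-sided exact permutation test, p = 0.26, adjusted over 4 pairs 0.51). The difference was 0.61 within slide 2 and -0.35 within slide 3. The difference thus had opposite signs in the 2 slides.

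For miR-30c against miR-30e the ratio was 1.54, 1.56, 1.53 and 1.45 on E13 replicates 1 to 4 and 0.70, 1.59, 1.49 and 2.01 on E16 replicates 1 to 4. The SD of the ratio was 0.05 at E13 and 0.55 at E16, and E16 replicates 1 and 4 lay on opposite sides of all E13 arrays. The mean difference was -0.08 (exact permutation test, p = 0.86, adjusted 0.86) and turned to 0.17 without E16 replicate 1 and to 0.20 with the slide as a block. For miR-30c against miR-30a it was 0.13 (exact permutation test, p = 0.51, adjusted 0.69), with values of -0.39, 0.18, 0.30 and 0.55 on E16 replicates 1 to 4, and it depended on E16 replicate 1. Without that array it was 0.32 and the stages did not overlap (exact permutation test, p = 0.029, the smallest possible, adjusted over 4 pairs 0.057), and a slide block gave 0.35 (exact p = 0.056, the smallest possible, adjusted 0.11). Against both miR-30a and miR-30e, miR-30c was relatively low on E16 replicate 1 and relatively high on E16 replicate 4.

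Several probes of different length read each member, and their ratio within an array should be steady where both report one miRNA. For miR-30a the 17-base probe exceeded the 16-base probe by 1.09 to 1.33 log2 units over the 8 arrays, and for miR-30d the 14-base probe exceeded the 13-base probe by 0.32 to 0.61. For miR-30c the 18-base probe exceeded the 17-base probe by 2.13 to 3.65. The highest of these ratios was on E16 replicate 1, where the processed signals were 482 and 38.5, and on the other 7 arrays the ratio stayed at or under 2.62. The shorter miR-30c probe had a log2 difference of 0.07 between stages, against 0.31 for the longer one. For miR-30b the shorter probe was at the floor on 4 arrays, among them E16 replicate 1, where the ratio was highest (3.03). For miR-30e the 17-base probe exceeded the 16-base probe by 2.02 to 2.47, again highest on E16 replicate 1. That array also held the highest ratio of miR-30d (0.61) and the lowest of miR-30a (1.09), while that of miR-30a* (0.95) was within its range. Between the spots of one probe on one array the coefficient of variation was 1.99% to 13.01% for miR-30a, 4.51% to 7.91% for miR-30c and 8.71% to 18.1% for miR-30a* where it was well above background.

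**Figure D4:**
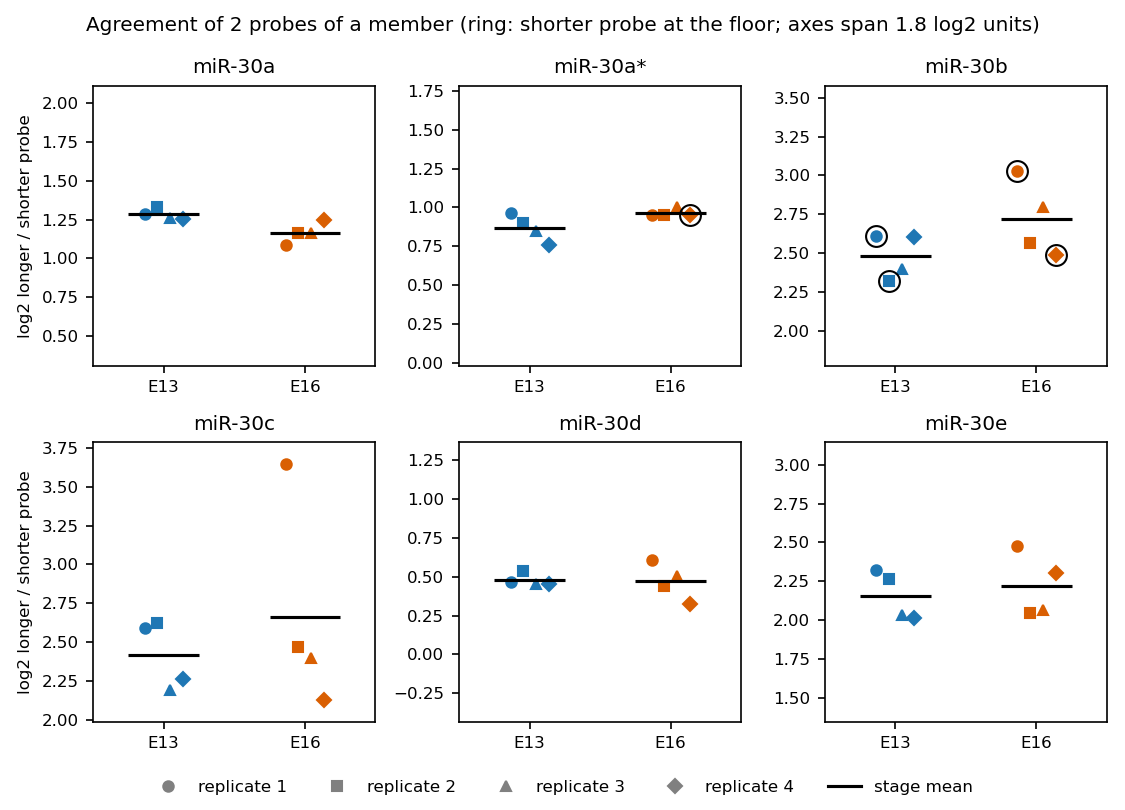
Log2 ratio of the longer to the shorter probe of each member on the 8 arrays, with rings where the shorter probe was at the floor and bars for the stage means. The ratio of miR-30c on E16 replicate 1 (3.65) stands above the other 7 arrays, which lie between 2.13 and 2.62. E16 replicate 1 is also the highest array for miR-30b, miR-30d and miR-30e and the lowest for miR-30a.

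The mean of the 5 guides over the 8 arrays, each centred on its own mean, was lowest on E13 replicate 2 (-0.46) and highest on E16 replicate 3 (0.33). Among 146 other tested miRNAs, the 5 whose values followed it most closely were miR-9* (Pearson correlation 0.96 over 8 arrays), miR-181a-1* (0.93), miR-29a (0.92), miR-181c (0.90) and miR-101a (0.84). miR-29a was detected on 1 array of E13 and 3 of E16, so that its correlation rests in part on values near background. These arrays share scaling and brightness, and the correlations are a description. None of the 5 passed the test between stages. miR-181c had the smallest adjusted p, at a log2 difference of 0.52 (SE 0.21, limma adjusted p = 0.080), and miR-9* was at 0.33 (SE 0.28).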

How the data were processed

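Total RNA of sorted progenitors was labelled with cyanine-3, 1 array per sample, per the labels' protocols. Per the file headers, the authors' scanner files come from Agilent Feature Extraction 10.7.3.1 with probes placed on mm9, and give spot intensity values not scaled between arrays, with other columns of flags. The deposited value table, an alternative, holds log2 values that read as quantile-normalized (a median of 6.90 in each of the 8 columns, over 1187 rows), but its software and its background correction are not stated in the labels.

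Outlier-flagged spots (1.91% to 3.87% of mouse spots) were left out, spots of a probe were averaged, and each array was divided by its 75th percentile over the 126 probes well above background (in a share of 0.5 of spots or more) on all 8 arrays, floored at percentile 1 (log2 -5.96) and logged. The probe with the highest mean stood for a miRNA. The 153 miRNAs detected on at least 4 arrays were fitted with limma 3.58.1 in R 4.3.3, which was checked on simulated data. Ratios within arrays were tested by exact permutation. Members of different probes were not compared in level. The named miRNAs are the members, other miR-30 arms and the 5 miRNAs most correlated with the guides. Also named are miR-9 and, after their values were seen, miR-153, miR-7a and arms of other hairpins. Members and lists were chosen with earlier results of these data known. Replicate numbers are shared between stages but do not pair the arrays. Alternatives covered scaling, background, filters, probes, slide and left-out arrays. The number of arrays limits the precision.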

Additional observations from a re-analysis of the deposited data

Results flagged for a closer look

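One value stood apart from the other replicates of its stage. For the log2 ratio of miR-30c to miR-30a, E13 replicate 2 was at -0.12, while the other E13 arrays lay between 0.06 and 0.09, a gap of 0.88 of the group's range against a critical value of 0.829 for 4 samples. Chance sets apart about 1 group in 20, and 20 groups were examined.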

How the results depend on the processing

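No member was higher at E16 in the reported fit; 5 were with the all-probe 75th percentile, 5 with median centring and 1 with the deposited value table. None was lower; 1 (miR-30a*) was without E16 replicate 1 and 1 within slide 3, where its E16 side is 1 array without detection and supports no call, with 0 to 1 lower over the left-out arrays and 0 higher. Signs turned for miR-30a* to 0.37 with the all-probe percentile, 0.12 by quantile normalization and 0.00074 by normexp, for miR-30d to -0.0571 by total signal, and within slide 3 for miR-30a (-0.38), miR-30b (-0.42), miR-30d (-0.0759) and miR-30e (-0.42). Leaving out 1 array gave -0.00982 (without E16 replicate 2) to 0.0504 for miR-30d. It gave 0.07 to 0.31 for miR-30a, 0.14 to 0.42 for miR-30b, 0.16 to 0.43 for miR-30c and 0.22 to 0.58 for miR-30e, none of which passed. Without E13 replicate 2 alone, miR-30a, miR-30b, miR-30c and miR-30e were at 0.07, 0.15, 0.16 and 0.22, each lower by over 1.5 times. The ratio of miR-30c to miR-30a turned to -0.0140 by quantile normalization and -0.0760 by the mean of all probes, that of miR-30c to miR-30e to 0.20 with a slide block, 0.51 inside slide 3 and 0.17 when E16 replicate 1 was left out, and that of miR-30b to miR-30d to -0.35 within slide 3. Leaving out 1 array gave -0.26 to 0.17 for miR-30c to miR-30e, 0.12 to 0.37 for miR-30b to miR-30d and 0.0024 to 0.32 for miR-30c to miR-30a. For miR-30a* to miR-30a it gave -0.73 to -0.56. That ratio of the arms was unchanged in 4 of 21 alternatives. The all-probe percentile and median centring shift each array alike, neither arm was at the raised floor, and the replicate block alters only the test. The arm ratio kept its sign in the other 17 (-1.28 to -0.20), though its stages overlapped by quantile normalization, normexp and total signal. It passed after adjustment in 0, where the smallest possible p of 1 pair alone could not pass. The cause of these changes was not tested. With the replicate block, 0 members were higher and 0 lower, so the block changed no call of a member. Over the 153 tested miRNAs it gave 10 higher and 35 lower, against 11 and 40 in the reported fit. The pair miR-30a* to miR-30a stayed at -0.63 (exact test over 16 sign flips, p = 0.125, the smallest possible). Deviations of same-numbered arrays correlated at -0.10, 0.07, 0.27 and -0.15, so the numbers were not read as pairs. The shorter probes of miR-30c and miR-30e, the 16-base arm probes, the arrays with miR-30a* detected and the miR-30e hairpin were added after seeing the data. Low signal limits miR-30a* and E16 replicate 4.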
